A study of Mus musculus with 6 samples.

Results

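The high mobility group (HMG) chromatin proteins were followed here through 8 genes, Hmga1, Hmga2, Hmgb1, Hmgb2, Hmgb3, Hmgn1, Hmgn2 and Hmgn3, which were found by their symbols among 24421 symbols in the files. The family was chosen by measured values, namely the glioma minus normal differences of these same libraries, so the members' differences are given as a description and are not tested. The samples were endothelial cells sorted from C57BL/6 mice, 3 libraries from normal brain and 3 from glioma tissue taken 3 weeks after GL26l glioma cells were injected into the brain. The comparison asks how tumor vessels and brain vessels differ in gene expression. No transgene or drug is named for either group, and the sources used here give neither the age of the mice nor the number of animals behind each library. The column heading of glioma replicate 3 holds the word Control and does not mention glioma, and its group was taken from the sample title.

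HMG proteins are small and abundant chromatin proteins that bind DNA or nucleosomes and bend, loosen or reshape them. HMGA proteins bind AT-rich DNA through AT-hooks and are typical of embryonic and tumor cells. HMGB proteins carry DNA-bending HMG boxes and an acidic tail, and HMGB1 released from cells acts as an alarm signal for receptors such as RAGE and the Toll-like receptors. HMGN proteins bind the nucleosome core and compete with linker histone H1. Of these genes, Hmgb2 is known for high transcript levels in cycling cells, and Hmga2 for its repression by let-7 microRNAs.

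Values are the deposited log2(x + 1) values. Libraries were built with a kit that reads the 3′ end of polyadenylated transcripts, so levels of different genes can be set side by side without a length correction. A value of 0 says only that a gene was listed at 0 in that library. The libraries were uneven. Normal replicate 1 had the fewest genes above 0 (7446) and glioma replicate 1 the most (13108). The smallest value above 0 was 7.43 in normal replicate 1 and 0.22 to 5.22 in the others. Normal replicates 2 and 3 were much alike (Pearson's r = 0.97 across the 5880 genes above 0 in all 6 libraries), while normal replicate 1 correlated with them at 0.58 and 0.60, and genes are not independent replicates. Date-like numbers in the column headings are shared within normal replicates 2 and 3 and within glioma replicates 2 and 3 and never across the groups, so such a batch and the group cannot be told apart. All 16 endothelial markers, among them Egfl7, Pecam1 and Cd34, were above 0 in each library. They summed to 2.61%, 3.35% and 3.34% of a library's back-transformed values in normal replicates 1 to 3. In glioma replicates 1 to 3 the sums were 1.39%, 2.43% and 1.74%, each below all normal libraries. Any part of this in the HMG differences was not tested.

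Hmga1 was the tested member with every glioma value above every normal value. Hmgb2, Hmgb3 and Hmgn2 had higher glioma means with overlapping libraries, Hmgb1 and Hmgn1 had nearly equal means, Hmgn3 was listed at 0 in 1 glioma library, and Hmga2 was above 0 in 1 library of each group. Of the 8 genes, 7 passed the filter on low values and entered the fit, and Hmga2 did not. The limma fit over 11862 genes called 0 of them (0%) at a Benjamini-Hochberg adjusted p of 0.05, the members included, and its smallest adjusted p was 0.875. Without adjustment, 509 genes had a p under 0.05, of which 279 were higher in glioma. All glioma values exceeded all normal values in 6.91% of tested genes, and the reverse held in 6.37%. Among the tested members the former held for 1 of 7 and the latter for 0 of 7. Nothing is read from these shares, since the members were taken from the same contrast. The median difference of the 7 members, glioma minus normal, was 0.94, beside 0.05 over all tested genes, and it was 0.12 without glioma replicate 1. In sorted bulk material, fewer cells of a kind and less RNA per cell cannot be told apart.

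**Figure D1:**
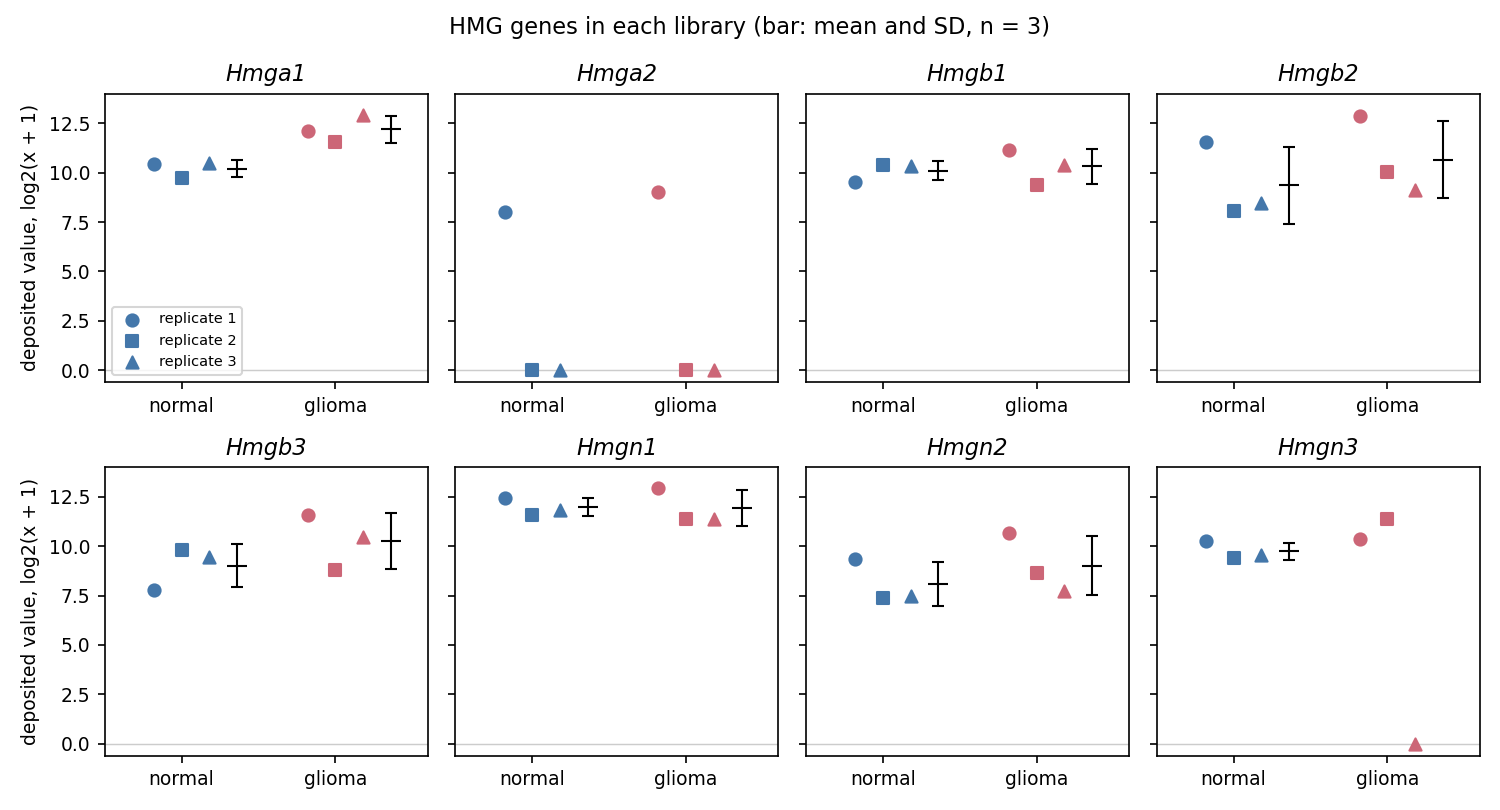
Deposited log2(x + 1) values (vertical axis) of the 8 HMG genes in each normal and glioma library, with a marker shape for each replicate number and a bar for the mean and SD of 3 libraries where none is at 0. The Hmga1 points of the groups do not meet, while Hmgb2 and Hmgn2 are high in replicate 1 of both groups.

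Hmga1 encodes the AT-hook protein of the family that is widely expressed in embryonic and tumor tissue (GRCm38 chromosome 17, 27556497 to 27563674). Its log2 value was 10.42, 9.70 and 10.49 in normal brain, in the order of the replicate numbers that is kept throughout, and 12.13, 11.56 and 12.90 in glioma. The lowest glioma library lay 1.07 above the highest normal library. The means were 10.20 ± 0.44 and 12.20 ± 0.68 (SD, n = 3 each), a difference of 1.99 on the log2 scale (SE 0.52). Leaving out each library in turn gave differences from 1.64 to 2.31. Reads that also match elsewhere in the genome could enter these values, and the sources used here do not say how the authors placed such reads, so the level of Hmga1 is uncertain to that extent. Within its library, Hmga1 exceeded between 70.1% and 83.7% of the genes above 0 in normal brain and between 90.6% and 96.7% in glioma.

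The Hmga1 promoter is shown because this gene separates the groups. It is the stretch of 250 bases before the RefSeq start site (GRCm38.p6, plus strand, chr17:27556324-27556573), printed 5′ to 3′ with capitals at matches, on either strand, to CCAAT, to the letters TTTGAA or to the letters GGGCGG. These are the core letters of the CCAAT box, of the element known from promoters of genes that peak late in the cell cycle, and of the GC box.
Hmga1: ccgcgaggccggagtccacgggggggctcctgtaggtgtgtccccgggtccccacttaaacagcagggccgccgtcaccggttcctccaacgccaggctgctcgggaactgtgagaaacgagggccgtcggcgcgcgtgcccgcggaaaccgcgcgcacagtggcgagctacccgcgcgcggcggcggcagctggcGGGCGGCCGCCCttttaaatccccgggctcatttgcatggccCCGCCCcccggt
RefSeq lists a further start for this gene, and the window of the first is printed. It held 3 matches to GGGCGG, beginning 54, 48 and 12 bases before the start, and 0 matches to CCAAT and likewise none to TTTGAA. The gene span given above begins inside this window, and the 3 matches lie within that span. Among 32851 promoter windows of this length, 32.7% held GGGCGG, 33.8% held CCAAT and 15.99% held TTTGAA. A match is a description of the letters and not a bound site.

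Hmga2 encodes the AT-hook protein of early development that is silent in most adult tissues (chromosome 10, 120361275 to 120476469). It was listed at 7.99 in normal replicate 1 and at 9.02 in glioma replicate 1, and at 0 in the other 4 libraries. The values above 0 thus came from replicate 1 of each group. In normal replicate 1 the value exceeded only 13.5% of the genes above 0, close to that library's lowest value of 7.43, while in glioma replicate 1 it exceeded 65.0%. No other annotated gene matched its last 300 bases at 95% identity over 100 bases.

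Among genes that act on the Hmga2 transcript, those of the LIN28 and IGF2BP proteins were highest in the same glioma library. That library had the most genes above 0 (13108), and Dicer1 was highest in normal replicate 1. LIN28 proteins block the maturation of let-7, and Lin28b was listed at 6.98 and Lin28a at 2.22 in glioma replicate 1 and both at 0 elsewhere. The IGF2BP proteins are fetal RNA-binding proteins that stabilise target transcripts. Igf2bp3 was above 0 in 5 libraries, at 9.21 in glioma replicate 1 and from 5.06 to 6.66 in the other 4. Igf2bp2 was at 10.12 in glioma replicate 1 and at 0 in the other 5 libraries. Igf2bp1 was at 10.81 there, and otherwise above 0 only in normal replicates 2 (5.57) and 3 (3.89). Dicer1, which cuts microRNA precursors, was above 0 in all 6 libraries, at 10.13, 8.58 and 8.79 in normal brain and 9.78, 7.44 and 8.18 in glioma. In normal replicate 1, where Hmga2 was also above 0, all LIN28 and IGF2BP genes were at 0. Hmga2-ps1, a pseudogene, was at 6.42 in glioma replicate 2 alone. Of the 7 genes in this list 3 were tested, and 0 passed the limma test in either direction.

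**Figure D2:**
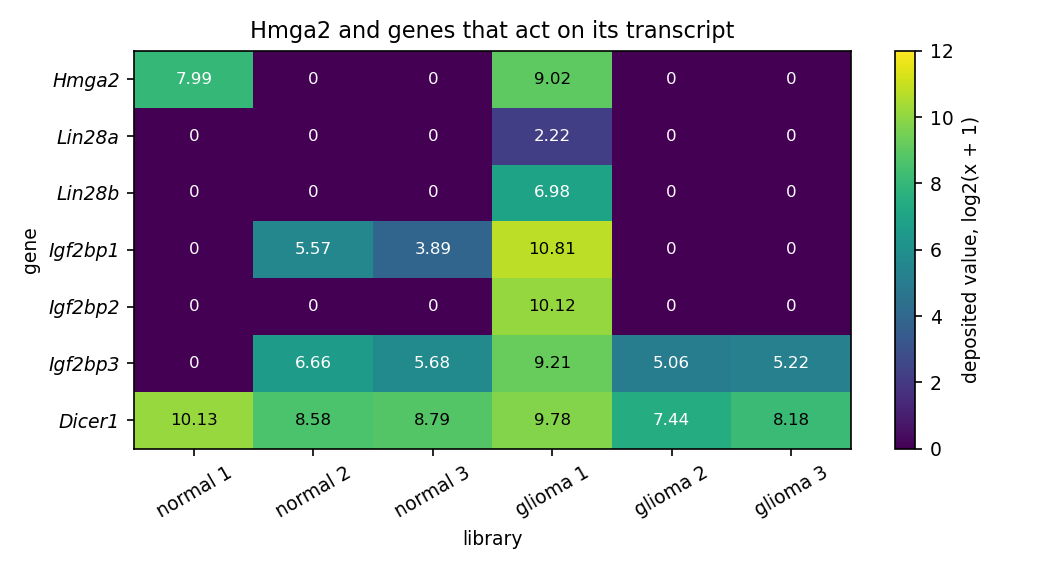
Deposited log2(x + 1) values (colour scale and printed numbers) of Hmga2, the LIN28 and IGF2BP genes and Dicer1 in the 6 libraries. Glioma replicate 1 is the library with values above 0 for all 7 genes, and Hmga2 is also above 0 in normal replicate 1.

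Hmgb1, the most widely expressed HMG-box protein and the alarm signal of the family (chromosome 5, 149046702 to 149184489), was level between the groups. Its log2 value was 9.53, 10.40 and 10.35 in normal brain and 11.13, 9.40 and 10.40 in glioma. The groups overlapped fully, with the highest and the lowest value both in glioma. The difference was 0.22 (SE 0.63), and dropping normal replicate 1 made it -0.07, dropping glioma replicate 1 made it -0.20. Parts of its transcript matched 39 annotated pseudogenes at 95% identity or more over 100 bases or more, though none within the last 300 bases. None of the 39 was found under its annotated name among the symbols, and older names were not searched for them. A separate symbol, Hmgb1-rs17, was at 7.43, 4.21 and 1.94 in normal brain and at 2.87, 4.07 and 6.03 in glioma. With it summed into Hmgb1 the difference was 0.14.

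Hmgb2, the HMG-box protein known for its link to proliferating cells (chromosome 8, 57511907 to 57515999), varied most among the members above 0 in all libraries. It was at 11.56, 8.04 and 8.45 in normal brain and at 12.84, 10.02 and 9.11 in glioma. Normal replicate 1 lay above glioma replicates 2 and 3, and the other normal libraries lay below all glioma libraries. The means were 9.35 ± 1.93 and 10.66 ± 1.94 (SD, n = 3 each), a difference of 1.31 on the log2 scale (SE 1.19). The difference was 2.41 without normal replicate 1, where the groups no longer overlapped, and 0.22 without glioma replicate 1. Without normal replicate 1 the share of all tested genes with glioma wholly above was 14.7%.

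The Hmgb2 promoter is shown because the gene is known for high levels in cycling cells and the TTTGAA element from cell cycle promoters. The 250 bases before its start site (GRCm38.p6, plus strand, chr8:57511593-57511842) follow in the same format.
Hmgb2: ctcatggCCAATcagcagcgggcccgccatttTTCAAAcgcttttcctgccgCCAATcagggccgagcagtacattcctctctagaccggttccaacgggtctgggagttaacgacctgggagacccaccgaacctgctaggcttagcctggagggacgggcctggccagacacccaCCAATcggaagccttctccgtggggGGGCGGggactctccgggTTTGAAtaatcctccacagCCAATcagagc
It held 4 matches to CCAAT, beginning 243, 198, 73 and 11 bases before the start, and 2 matches to TTTGAA, beginning 218 and 30 bases before it. GGGCGG had 1 match, beginning 48 bases before the start. At least 3 matches to CCAAT were found in 2.79% of all windows, and CCAAT together with the letters TTTGAA in 5.55%. No match to 1 motif shared bases with another motif. Hmgb3 also held CCAAT and also TTTGAA in its window, with 3 matches and 1 match.

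Hmgb3, an X-linked HMG-box gene active in embryonic and stem cells (chromosome X, 71555918 to 71560676), was at 7.77, 9.80 and 9.46 in normal brain and at 11.56, 8.77 and 10.48 in glioma. Normal replicate 1 was lowest, in contrast to Hmgb2, and its value exceeded only 8.85% of the genes above 0 there. The difference was 1.26 (SE 0.89), with 0.64 when normal replicate 1 and 0.62 when glioma replicate 1 was dropped. Within libraries, Hmgb2 exceeded Hmgb3 by 3.79 on the log2 scale in normal replicate 1 and by 1.28 and 1.25 in glioma replicates 1 and 2. In normal replicates 2 and 3 and glioma replicate 3 Hmgb3 was the higher gene, and Hmgb2 minus Hmgb3 was -1.76, -1.01 and -1.37.

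Receptors and adaptors of extracellular HMGB1 did not follow a common direction. Of the 15 genes of this list 13 were tested, 0 passed the limma test, and none had groups that did not overlap. The list's median difference was 0.43, and -1.09 over the 7 genes above 0 in all 6 libraries. Ager, the gene of RAGE, was at 6.31 in glioma replicate 3 and at 0 in the other 5 libraries. Tlr4 was at 8.08, 0 and 3.75 in normal brain and at 0, 6.78 and 6.35 in glioma. Thbd, the endothelial thrombomodulin that binds HMGB1, was at 8.06, 10.83 and 10.83 in normal brain and at 5.25, 10.78 and 10.41 in glioma, lowest in replicate 1 of both groups.

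**Figure D3:**
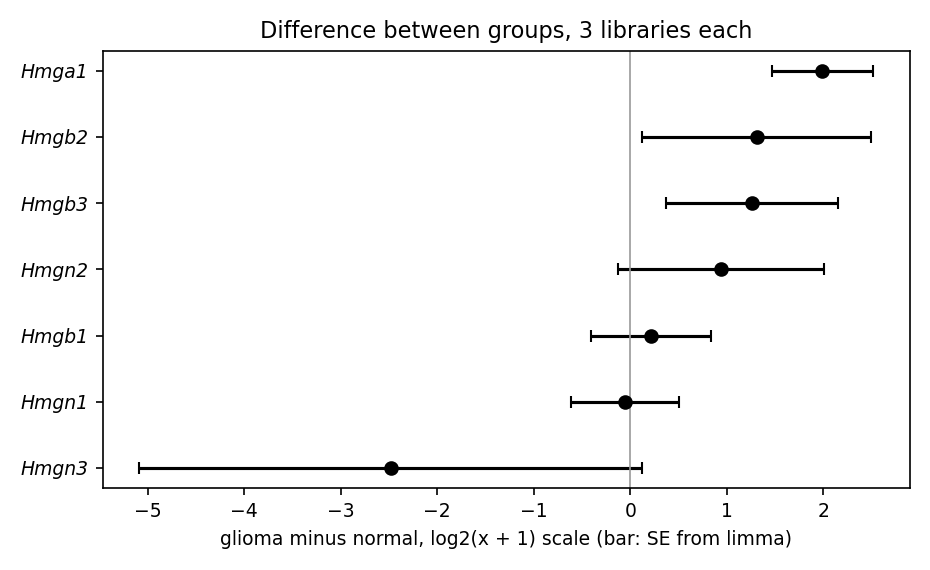
Difference in log2(x + 1) value, glioma minus normal (horizontal axis), of the 7 fitted HMG genes, with the SE from limma as bars. Hmga1 lies farthest above 0 at 1.99, and Hmgn3, at 0 in 1 glioma library, has the widest bar.

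The genes of the HMGN proteins also differed among themselves. Hmgn1 (chromosome 16, 96120618 to 96127729) was at 12.46, 11.57 and 11.85 in normal brain and at 12.95, 11.39 and 11.36 in glioma, with a difference of -0.05 (SE 0.56). The sign of that difference turned without normal replicate 1 (0.20), glioma replicate 2 (0.20) or glioma replicate 3 (0.22), and without glioma replicate 1 the other glioma libraries lay wholly below normal (-0.58), as 12.1% of all tested genes did then. Hmgn2 (chromosome 4, 133964738 to 133968650) was at 9.35, 7.39 and 7.48 in normal brain and at 10.65, 8.65 and 7.75 in glioma. As with Hmgb2, normal replicate 1 reached above glioma replicates 2 and 3 while the other normal libraries lay below all glioma libraries. Its difference was 0.94 (SE 1.07), with 1.58 when normal replicate 1 and 0.12 when glioma replicate 1 was dropped. A protein-coding gene model, Gm10282, aligned over 297 of the last 300 bases of Hmgn2 at 99.7% identity and has no symbol in the files, and 11 pseudogenes matched parts of the Hmgn2 transcript.

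Hmgn3 (chromosome 9, 83109948 to 83146685) was at 10.24, 9.42 and 9.54 in normal brain, at 10.37 and 11.38 in glioma replicates 1 and 2, and at 0 in glioma replicate 3. Both glioma libraries above 0 exceeded all normal libraries. Without glioma replicate 3 the difference was 1.15, against -2.48 (SE 2.61) with it, so that library sets the sign. Such a dropout was seen in 26 (1.10%) of 2369 genes that exceeded 9 everywhere but glioma replicate 3. No other annotated gene matched the Hmgn3 transcript at 95% identity.

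Hmgb2 and Hmgn2 put the 6 libraries in the same order. Both were highest in glioma replicate 1, followed by normal replicate 1, glioma replicate 2, glioma replicate 3, normal replicate 3 and normal replicate 2. Of the 5880 tested genes above 0 in all 6 libraries, 47 (0.799%) had the library order of Hmgb2, Hmgb2 itself included. The tested gene nearest to Hmgb2 over the 6 libraries was H2afx, which encodes the histone variant H2A.X that marks DNA breaks when phosphorylated. The measure was the mean absolute difference between profiles once each gene's own mean is taken off, and it was 0.16 on the log2 scale. H2afx was at 11.32, 7.75 and 8.06 in normal brain and at 12.80, 10.01 and 9.19 in glioma, the same library order again. Next came Pip4k2a, a phosphoinositide kinase, at 0.26 and Akr7a5, an aldo-keto reductase, at 0.27. Hmgn2 stood at 0.49, the 27th nearest gene, and 550 tested genes (4.64%) lay within 1. All of these genes share the same 6 libraries, with their unequal detection.

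The promoter of Hmgn2 is shown for comparison with that of Hmgb2, since these genes shared an order of libraries. It is on the minus strand (GRCm38.p6, chr4:133967992-133968241) and follows in the same format. This window lies wholly within the gene span given above. It thus precedes a RefSeq start inside that span, and bases before the outermost annotated start were not read.
Hmgn2: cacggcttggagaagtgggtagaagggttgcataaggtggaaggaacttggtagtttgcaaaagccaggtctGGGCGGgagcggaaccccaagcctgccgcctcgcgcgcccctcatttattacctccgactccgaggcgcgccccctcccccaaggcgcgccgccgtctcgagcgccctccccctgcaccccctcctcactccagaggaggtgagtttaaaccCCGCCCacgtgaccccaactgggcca
It held 2 matches to GGGCGG, a motif with 1 match in the Hmgb2 window, and 0 to CCAAT and likewise none to TTTGAA. RefSeq promoter entries were found for 7 of the 8 members, all but Hmgn3.

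The median level of cell cycle genes was also highest in replicate 1 of each group, although some, such as Pcna, were at 0 in normal replicate 1, and 0 of the 11 above 0 in all libraries had exactly the order of Hmgb2. Mki67, the gene of the proliferation antigen Ki-67, was at 9.57, 0 and 0 in normal brain and at 11.74, 7.92 and 7.80 in glioma. Top2a, the topoisomerase of dividing cells, was at 10.03, 0 and 2.00 in normal brain and at 11.44, 8.52 and 9.42 in glioma. Over the 29 tested genes of the cell cycle list, the library medians were 9.20, 5.86 and 5.70 in normal brain and 9.98, 8.52 and 8.22 in glioma. In that list 7 of 29 genes had glioma wholly above normal and 0 wholly below, beside 6.91% and 6.37% of all tested genes, and 0 passed the limma test. Among them Ccnb2, a mitotic cyclin, had no value above 0 in normal brain and read 8.33, 4.78 and 8.51 in glioma. Pcna, the replication clamp, was at 0, 5.86 and 6.57 in normal brain and at 10.05, 9.39 and 10.97 in glioma. Bub1b, a spindle checkpoint kinase, was at 0, 0 and 0 in normal brain against 7.76, 8.52 and 5.22 in glioma. Mcm4, a subunit of the replicative helicase, was at 0, 8.24 and 8.64 in normal brain against 10.26, 8.65 and 9.46 in glioma. The list's median difference was 2.92, and 0.83 over its 11 genes above 0 in all 6 libraries.

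**Figure D4:**
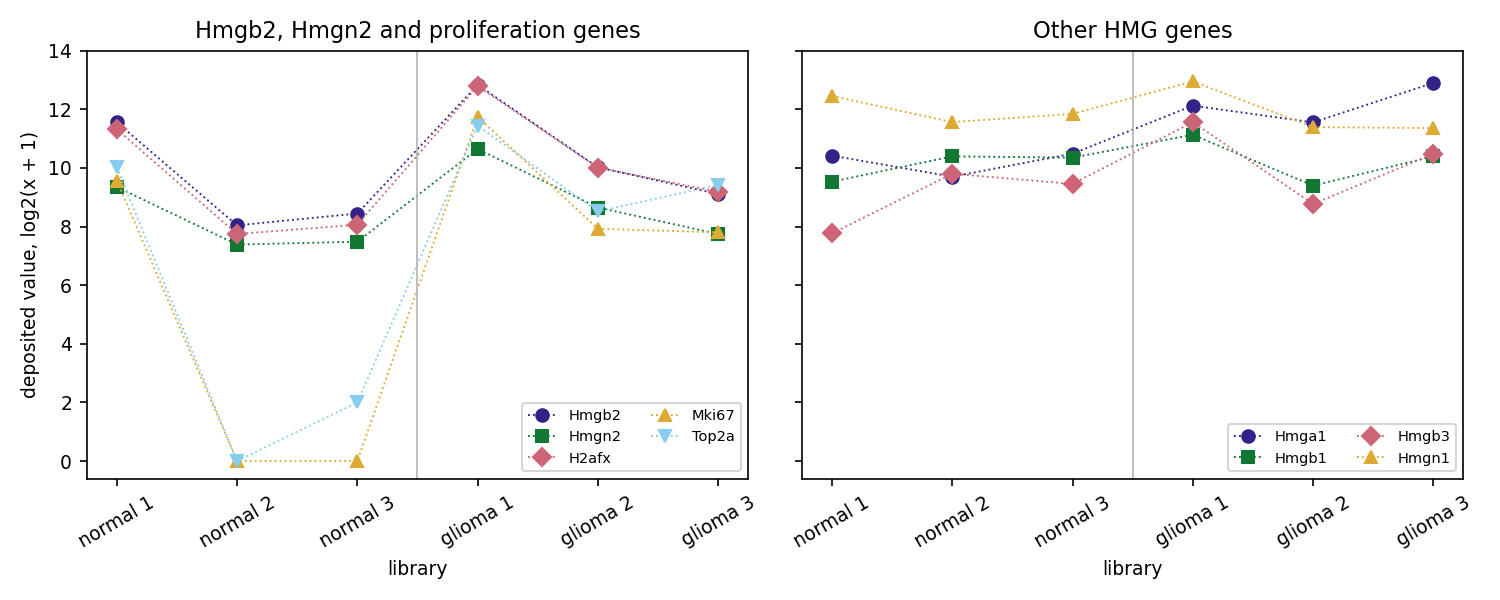
Deposited log2(x + 1) values (vertical axis) in the 6 libraries (horizontal axis) of Hmgb2, Hmgn2, H2afx, Mki67 and Top2a on the left and of other HMG genes on the right; dotted lines only join the points of a gene. The left genes are high in replicate 1 of both groups, while Hmga1 is higher in every glioma library than in any normal library.

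Summed on the back-transformed scale, the 8 genes made up 0.0780%, 0.0424% and 0.0493% of the library sum in normal brain and 0.167%, 0.0642% and 0.0814% in glioma. Normal replicate 1 lay between glioma replicates 2 and 3, and glioma replicate 1 was highest by far. Their makeup differed by library. Hmgn1 held 43.0%, 42.0% and 43.8% of the HMG sum in normal brain and 27.9%, 24.6% and 19.01% in glioma. Such a share depends on the other members, and the level of Hmgn1 itself overlapped between the groups (difference -0.05). Hmga1 held 10.5%, 11.5% and 17.1% in normal brain and 15.7%, 27.6% and 55.4% in glioma, and these ranges met at glioma replicate 1. Hmgb2 held 23.1% in normal replicate 1 and 25.7% in glioma replicate 1, and 3.64% to 9.52% in the other 4 libraries. Hmgn1 had the highest level of the 8 genes in all normal libraries and in glioma replicate 1, and Hmga1 in glioma replicates 2 and 3.

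**Figure D5:**
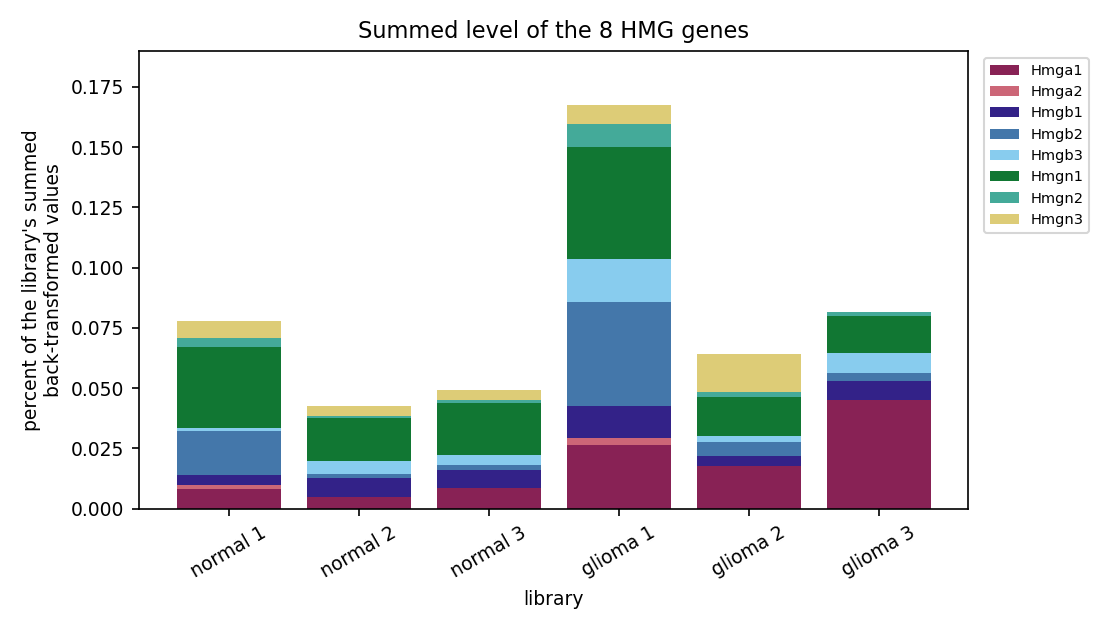
Summed level of the 8 HMG genes as a percent of each library's summed back-transformed values (vertical axis), stacked by gene. Glioma replicate 1 stands highest at 0.167%, and the Hmga1 segment is largest in glioma replicate 3.

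Other genes with HMG motifs or HMG boxes did not share a direction. Of 18 such genes 15 were tested, 0 passed the limma test, 1 had glioma wholly above normal and 2 wholly below (6.91% and 6.37% of all tested genes), and the median difference was -0.07. Hmgxb3 was at 9.39, 9.36 and 9.11 in normal brain and at 11.05, 10.03 and 9.93 in glioma. Ubtf, which drives ribosomal RNA transcription, was at 12.93, 12.82 and 12.91 in normal brain and lower in each glioma library, at 12.45, 12.03 and 12.13 (difference -0.69, SE 0.40, limma adjusted p = 0.875). Tfam, which packs mitochondrial DNA, was at 8.42, 8.48 and 8.40 in normal brain and at 6.48, 0 and 8.25 in glioma. Hmgn5, the X-linked HMGN gene, was at 9.08, 11.12 and 11.11 in normal brain and at 10.94, 9.54 and 10.71 in glioma, with a difference of -0.04. Ssrp1, the HMG-box subunit of the FACT histone chaperone, was at 13.59, 11.88 and 12.10 in normal brain and at 12.93, 12.07 and 9.62 in glioma.

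Partners of HMG proteins on chromatin were also read, list by list. Among histone chaperones and acidic nucleosome-binding proteins, all 20 genes were tested, 17 had a difference above 0 (6096 of 11862 over all tested genes) and 0 passed the limma test. Glioma lay wholly above normal in 3 and wholly below in 0, beside 6.91% and 6.37% of all tested genes. Their median difference was 0.56. Npm1, the nucleolar chaperone nucleophosmin, was at 10.46, 11.58 and 11.30 in normal brain and at 12.55, 11.98 and 13.03 in glioma (difference 1.40, SE 0.50, limma adjusted p = 0.875). Set, a histone chaperone, was at 11.63, 11.61 and 11.56 in normal brain and at 12.63, 11.78 and 11.85 in glioma. Chaf1b, a subunit of the replication-coupled chaperone CAF-1, had no value above 0 in normal brain and read 3.81, 6.31 and 6.12 in glioma. Among linker and replacement histones, 11 of 14 genes were tested, none had groups that did not overlap, 0 passed, and the median difference was 0.16. H1f0, the linker histone of resting cells, was at 12.95, 11.01 and 11.21 in normal brain and at 12.98, 11.24 and 12.03 in glioma, and H2afz, which encodes the variant H2A.Z, was at 9.43, 10.66 and 10.70 against 10.99, 11.34 and 10.34.

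Transcripts of other cell types moved with some of these values. In glioma replicate 1, where Hmgb1, Hmgb2, Hmgb3, Hmgn1, Hmgn2 and Hmga2 were highest, all 12 fibroblast markers were above 0 against 2 to 6 in the other libraries. Their sum there was 0.0274% of the library, between 0.0010% and 0.0141% in normal brain and between 0.0011% and 0.0057% in the other glioma libraries. Neuron markers summed to 0.0605% in that library and to at most 0.0093% elsewhere, and endothelial markers to 1.39%, their lowest share. In glioma replicate 3, where Hmga1 was highest, microglia and macrophage markers summed to 0.194%, with 15 of 17 above 0 and Itgam and Adgre1 at 0. That sum ran from 0.0018% to 0.0242% in normal brain, and it was 0.0058% and 0.0053% in glioma replicates 1 and 2. Without glioma replicate 3 the Hmga1 difference was 1.64. In glioma replicate 2 Hmga1 also lay above all normal libraries, with 13 of 17 microglia and macrophage markers at 0, among them Aif1, Csf1r, P2ry12 and Tyrobp. Glioma and neural progenitor markers summed to between 0.0933% and 0.337% in normal brain and between 0.130% and 0.289% in glioma, and the list's most abundant genes, Prom1, Vim and Nes, are also expressed by endothelium. Of its 9 tested genes, 2 (Sox2 and Fabp7) had all glioma values above all normal values and 1 (Bcan) all below, beside 6.91% and 6.37% of all tested genes. The genes Sox2, Fabp7 and Bcan were named after their values were seen. Sox2, a transcription factor of neural progenitors and glioma cells, was at 0, 0 and 1.22 in normal brain against 7.92, 5.53 and 8.47 in glioma. Bcan, which encodes the brain matrix proteoglycan brevican, went the other way, at 8.79, 6.59 and 6.27 in normal brain and at 0 in all glioma libraries. The differences of Prom1 (-0.57) and Nes (-0.36) were also below 0 and that of Vim (1.83) was above 0, all with overlapping groups. In this list 6 of the 9 tested genes had a difference above 0 (6096 of 11862 over all tested genes). The list's median difference was 1.83, and -0.36 over its 3 genes above 0 in all 6 libraries. Msi1, another marker of such cells, was at 0 in every library. The part of tumor cell, microglia and macrophage transcripts in the Hmga1 values, and of fibroblast and neuron transcripts in the other HMG values of glioma replicate 1, was not tested.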

How the data were processed

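RNA from sorted endothelial cells was made into Lexogen QuantSeq libraries, per the labels' protocols, and the submitters' processing notes list Bowtie2, edgeR and mm10 with neither roles nor versions. The counting tool, strand setting, annotation and normalization were not stated there or in the labels. The deposited log2 values carry no statement of scale. They were read as log2(x + 1) of quantile-normalized values only from the numbers themselves: the highest value was the same in each library, and 100% of back-transformed values lay within 0.02 of a multiple of 1 divided by 6. Library totals are thereby lost, sequencing depth is unknown, and no counting interval is given.

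The 6 libraries were grouped by their titles. The group difference was fitted with limma 3.58.1 in R 4.3.3 (mean trend, 4 residual degrees of freedom, Benjamini-Hochberg adjustment) over 11862 genes, those reaching 1 after back-transformation in 3 or more libraries, and the fit was tested on simulated data. Since nothing in the labels ties libraries to separate animals, p-values measure only the spread between these samples, which may be technical. The members and gene lists were chosen with earlier results of these data known. Named genes were the 8 members, up to 4 members of each other list whose groups do not overlap, 5 anchors (Ssrp1, H2afz, Mki67, Top2a, Lin28b), up to 3 highest members of each marker list and the 3 genes nearest to Hmgb2; other genes were chosen after their values were seen. Transcripts (GENCODE M21) were compared with blastn 2.17.0. Alternatives were other filters, a pseudocount of 16, a shared floor, no trend, a replicate block, leaving out each library, and, added after seeing the data, summing Hmgb1 with Hmgb1-rs17. Some results are not reported here. Promoter sequences are from RefSeq, GRCm38.p6.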

Additional observations from a re-analysis of the deposited data

How the results depend on the processing

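The number of genes past the adjusted threshold was 0 under the other filters, a pseudocount of 16, the shared floor and without each library in turn (0 to 0), and 15 with no mean trend in the variance prior, none of them an HMG member. Fitted with the replicate number as a block, 0 genes passed. Same-numbered libraries deviated together at correlations of 0.13, 0.03 and 0.06, so the numbers were not taken to pair the samples. The median difference of the HMG members ranged from 0.12 to 1.16 with a library left out, lowest without glioma replicate 1, and the median over all tested genes shifted to -0.35 without normal replicate 1. The number of members with glioma wholly above normal ranged from 1 to 3 with a library left out (3 without normal replicate 1, and 2 without glioma replicate 2 or 3), and wholly below from 0 to 1 (1 without glioma replicate 1). Over all tested genes the share wholly above was 14.7%, 11.5% and 12.4% without normal replicate 1, glioma replicate 2 and glioma replicate 3, against 6.91% with all libraries, and the share wholly below was 12.1% without glioma replicate 1, against 6.37%. Of 77 member differences under an alternative, 6 changed sign, in Hmgb1, Hmgn1 and Hmgn3. All 77 moved by less than 1 within-group SD, but nothing is read from that. Leaving out 1 of 3 libraries cannot move a difference that far, and another filter or the replicate block leaves it unchanged. With a shared floor of 7.43 the Hmgn3 difference was -0.004. Depth cannot be judged from these values.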

Other observations

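Other genes had profiles close to those of single HMG members, and they are given as values, chosen after their values were seen. Nearest to Hmgn2 over the 6 libraries were Ddx39b, an RNA helicase of mRNA export, and Ccnd2, the G1 cyclin D2, with mean absolute differences of 0.12 and 0.14 on the log2 scale after each gene's own mean was taken off. Ccnd2 was at 11.72, 9.87 and 10.06 in normal and at 12.83, 10.79 and 10.19 in glioma libraries. Slc12a2, a chloride cotransporter, was close to Hmga1 (0.25), with values of 8.96, 7.97 and 8.78 for normal brain, and of 10.12, 9.62 and 10.42 for the tumors.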
